A study of Mus musculus with 12 samples.

Results

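The genes of the Lin28 and let-7 timing pathway were followed in the neonatal mouse cochlea, at 2 ages and with or without stabilized β-catenin. 9 genes were taken by symbol from a table of 27754 genes, namely *Lin28a*, *Lin28b*, *Hmga2*, *Igf2bp1*, *Igf2bp2*, *Igf2bp3*, *Mycn*, *Trim71* and *Arid3b*. All 9 were in the table. *Lin28a* had a mean of 4.818 normalized counts and was not tested, so that 8 of the 9 were among the 18400 genes tested.

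In embryonic cells, LIN28A and LIN28B bind the precursors of let-7 microRNAs and keep them from being processed. Mature let-7, once made, represses the mRNAs of growth and progenitor genes, the *Lin28* genes among them, so that the 2 sides inhibit each other and the balance shifts as tissues mature. In the cochlea LIN28B and let-7 are known to act on the timing with which progenitors leave the cell cycle and hair cells differentiate. HMGA2 is a chromatin protein of fetal stem cells, IGF2BP1, IGF2BP2 and IGF2BP3 are RNA-binding proteins that stabilize and localize mRNAs, MYCN is a transcription factor of growing progenitors, TRIM71 is a ubiquitin ligase and RNA repressor first known as LIN-41 in worms, and ARID3B is a DNA-binding protein.

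RNA came from the cochlear sensory epithelium of both ears of single pups of a mixed C57BL/6 and CD1 background. All groups carried 1 β-catenin-flox(Exon3) allele and all were exposed to tamoxifen through the milk, from a mother injected on postnatal day 1 (groups named P1) or day 4 (groups named P4), and were dissected 72 h later, at day 4 or day 7. Treated pups also carried Sox2-CreER, which removes exon 3 of *Ctnnb1* and stabilizes β-catenin in SOX2+ cells only, and untreated pups were littermates without the Cre. 11 libraries were analysed, with 3 libraries in each group except P4 treated, which had replicates 1 and 3. The authors' normalized counts hold no values for P4 treated replicate 2. The paper left out 1 sample for insufficient Cre activation, which its main text does not name.

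From the reference (RefSeq, GRCm38.p6), 9 distinct mature let-7 sequences of the 5′ arm were taken, made from 11 mouse genes. Entries were also filtered by chromosome, so the set may not hold every mouse let-7 gene. The sequences are shown because the same 7 bases, positions 2 to 8, pair with the target mRNAs of all of them. The capitals mark this seed.
let-7a-5p: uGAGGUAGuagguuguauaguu
let-7b-5p: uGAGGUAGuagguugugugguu
let-7c-5p: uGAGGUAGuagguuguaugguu
let-7d-5p: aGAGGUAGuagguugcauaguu
let-7e-5p: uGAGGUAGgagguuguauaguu
let-7f-5p: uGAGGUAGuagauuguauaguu
let-7g-5p: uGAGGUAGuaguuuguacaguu
let-7i-5p: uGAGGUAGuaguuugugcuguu
miR-98-5p: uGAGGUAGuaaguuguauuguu

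All 9 share the seed GAGGUAG, miR-98 included. A transcript pairs with it through the letters CTACCTC, which were searched on the sense strand of the longest annotated 3′ untranslated region (3′UTR) of each gene (GENCODE M21, GRCm38). 8 of the 9 genes held at least 1 match, 21 in all, and *Mycn* held 0 in its 913 bases. Of 15233 tested genes with an annotated 3′UTR, 10.4% held a match and 0.184% held 3 or more, at 0.0725 matches per kb over all of them. *Lin28b*, *Hmga2*, *Igf2bp1* and *Trim71* held 4 each. Among genes with a 3′UTR of like length, at least 1 match was held by 24.8% for *Lin28b*, 17.1% for *Hmga2*, 34.2% for *Igf2bp1* and 30.3% for *Trim71*. The 0.184% includes these 4 genes, and the share of like length with 4 matches was not counted. All 9 genes were picked as genes of the let-7 pathway.

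The first match of each of the 8 genes, counted from the stop codon, is shown with its neighbouring bases on the strand of the transcript. All 8 genes lie on the minus strand, and the capitals mark the seed match.
Lin28a, chr4:134005182-134005210: cacagcctgttgaaCTACCTCatttttgc
Lin28b, chr10:45381015-45381043: cccgggcgggaagtCTACCTCatgcaagc
Hmga2, chr10:120364217-120364245: ccgacattcaatttCTACCTCagcatcag
Igf2bp1, chr11:95961771-95961799: ctgtgcgaagtaaaCTACCTCaaggtgtg
Igf2bp2, chr16:22059466-22059494: cacacaaataaaagCTACCTCaggtgttt
Igf2bp3, chr6:49086780-49086808: gcatttttactcaaCTACCTCaggtattc
Trim71, chr9:114512465-114512493: acattgcctaagtcCTACCTCagcttaaa
Arid3b, chr9:57790356-57790382: atttcaataaagctCTACCTCttcaca

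In 7 of these 8 the match is followed by an A, which is known to strengthen pairing sites, and in *Arid3b* it is followed by a T and begins 12 bases before the annotated end. The first matches of *Lin28b* and *Hmga2* begin 36 and 58 bases after the stop codon. Those of the Igf2bp genes lie further on, at base 1715 in *Igf2bp1*, 1313 in *Igf2bp2* and 548 in *Igf2bp3*. Later matches were less uniform. Every later match of *Lin28b* and *Hmga2* was followed by another base, those of *Lin28a* and *Trim71* by an A, and *Igf2bp1* had both kinds. How often an A follows a match over all genes was not counted. A match is a description of the letters and not a measured site.

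**Figure D1:**
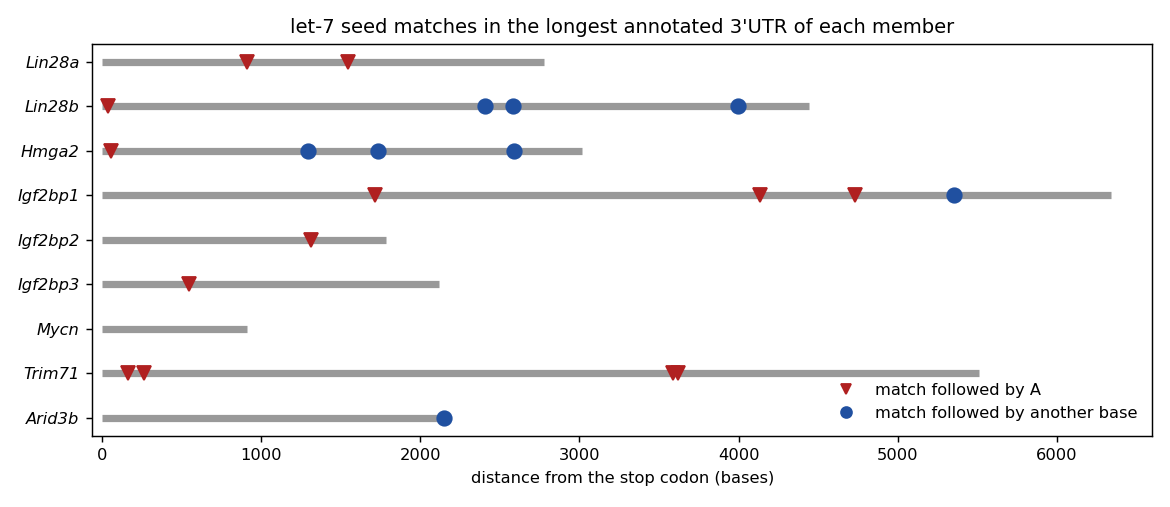
Each grey bar is the longest annotated 3′UTR of 1 gene, drawn from the stop codon (x axis, bases), and each mark is a match to the let-7 seed, a triangle where an A follows. The 4 marks of *Lin28b*, *Hmga2*, *Igf2bp1* and *Trim71* contrast with the single marks of *Igf2bp2*, *Igf2bp3* and *Arid3b* and with *Mycn*, which has 0.

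Mature let-7 itself was not measured, since the libraries hold mRNA and not small RNA. 4 let-7 hairpin genes had an entry, with 0 to 6 normalized counts per library. *Mir99ahg*, the long host transcript of *Mirlet7c-1*, was present at 412 to 686 normalized counts and passed no test (log2 fold change between P1 and P4 untreated 0.28).

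The 9 genes span a wide range of levels. Per kb of exon, over all 11 libraries, *Mycn* had a mean of 611 and *Igf2bp2* of 591 normalized counts, *Igf2bp3* 153, *Arid3b* 123, *Hmga2* 52.2, *Igf2bp1* 38.2, *Trim71* 18.8, *Lin28b* 7.58 and *Lin28a* 1.21. The 2 *Lin28* genes were thus the lowest of the 9, and *Lin28a* was close to the limit of detection. Whether neighbours in this order differ was not tested. A strand was not stated for the libraries, so reads of genes that overlap on the other strand cannot be told apart, among them *Malsu1* (mean 888.4) for *Igf2bp3* and *C130032M10Rik* (75.27) for *Trim71*. The authors' normalized counts summed to 41.2 to 44.2 M per library.

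The tissue labels were compared with marker genes, as the mean of log2(normalized count + 1) over a list. Supporting cell markers lay at 12.40 to 12.83 and hair cell markers at 10.22 to 11.53, and 0 of the 16 and 0 of the 15 genes were at 0 in any library. Mesenchyme markers, of the tissue that the dissection was meant to remove, lay at 9.84 to 11.40 and none of the 15 was at 0. *Ctnnb1*, counted over the whole gene, cannot show the loss of exon 3 (log2 fold change with treatment 0.16 at P1 and 0.13 at P4, not called). *Xist* was at 13 to 39 normalized counts in 7 libraries and at 2794 to 4180 in the other 4, which were 2 of 3 P1 untreated and both P4 treated libraries. Sex and treatment thus cannot be told apart at P4, nor fully at P1. Between treated groups sex and age cannot be told apart.

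The first question was how these genes changed with age in untreated pups. 4 of the 8 tested genes were called in a fit by limma (adjusted p under 0.05, with a minimum fold change), 2 higher at P1 and 2 lower. Over all genes tested 19.9% were called, 10.5% higher at P1 and 9.38% lower. The genes moved in both directions: *Mycn* and *Igf2bp3* were higher in the younger tissue, *Trim71* and *Igf2bp1* in the older, and *Lin28b*, *Hmga2*, *Igf2bp2* and *Arid3b* passed no test. The values of 5 of the 8 genes did not overlap between the groups, beside 41.3% of all genes. In RNA from whole epithelium, fewer cells of a type and less RNA per cell cannot be told apart.

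*Lin28b* was measured at 81, 62 and 23 normalized counts in P1 untreated libraries and at 94, 56 and 64 in P4 untreated libraries. The ranges overlapped, and the log2 fold change of P1 against P4 was -0.50 (95% interval -1.68 to 0.67, adjusted p = 0.537 from limma). *Lin28a* was at 10, 2 and 3 in P1 and 3, 3 and 5 in P4 untreated libraries, too few to compare.

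*Hmga2* was at 434, 214 and 358 normalized counts in P1 and at 347, 326 and 191 in P4 untreated libraries. Each group held a high and a low library and the ranges overlapped (log2 fold change 0.21, 95% interval -0.72 to 1.13, adjusted p = 0.764).

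The 3 paralogous *Igf2bp* genes each behaved differently. *Igf2bp1* was at 73, 69 and 81 normalized counts in P1 untreated libraries and at 379, 311 and 651 in P4 untreated libraries. Every P4 value was above every P1 value, and the mean was 5.67-fold higher at P4 on the log2 scale (log2 fold change of P1 against P4 -2.50, adjusted p = 0.0377 from limma, standard error 0.745). This call was kept in 11 of 22 alternatives. Adjusted p was 0.0511 with no filter on low genes and 0.0647 with eBayes without trend. It was 0.0547 to 0.121 without any 1 of the 6 libraries compared or either P4 treated library, and 0.000406 without P1 treated replicate 3, a library of another group that enters the shared spread of this gene.

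*Igf2bp3* went the other way, at 1593, 1418 and 1447 normalized counts in P1 and 1010, 814 and 872 in P4 untreated libraries. All P1 values were above all P4 values, 1.66-fold on average (log2 fold change 0.73, standard error 0.134, adjusted p = 0.00422). *Igf2bp2*, a paralogue known to remain broadly expressed in adult tissues, was at 4008, 3690 and 3284 in P1 and 4498, 4332 and 4904 in P4 untreated libraries. Its groups did not overlap, but the difference was small and was not called (log2 fold change -0.33, standard error 0.151, adjusted p = 0.151), except when P1 treated replicate 2 was left out (adjusted p = 0.0332).

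*Mycn* was at 2145, 2172 and 1998 normalized counts in P1 and at 1249, 1565 and 1032 in P4 untreated libraries. The groups did not overlap and the mean was 1.66-fold higher at P1 (log2 fold change 0.73, standard error 0.144, adjusted p = 0.00593). It is the gene of the family whose longest annotated 3′UTR lacks the letters CTACCTC. Shorter or other pairing sites were not searched, so let-7 sites in *Mycn* are not excluded.

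*Trim71* was at 132, 106 and 83 normalized counts in P1 and at 256, 279 and 204 in P4 untreated libraries. The P4 values were all higher, 2.31-fold on average (log2 fold change of P1 against P4 -1.21, standard error 0.267, adjusted p = 0.0104). *Arid3b* was at 937, 854 and 770 in P1 and at 923, 760 and 934 in P4 untreated libraries, with overlapping ranges and a log2 fold change of -0.03 (95% interval -0.31 to 0.26).

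*Igf2bp3* and *Mycn* were called between untreated groups in all 22 alternatives. With log2 *Xist* as a covariate *Trim71* (-0.92, adjusted p = 0.107) and *Igf2bp1* (-2.60, adjusted p = 0.134) were not called. The P1 untreated library with low *Xist*, replicate 1, lay outside the range of the P4 untreated libraries, all low in *Xist*, for these 4 genes and on the same side as the other P1 untreated libraries. This rests on 1 library, and sex and age cannot be fully told apart in these groups.

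**Figure D2:**
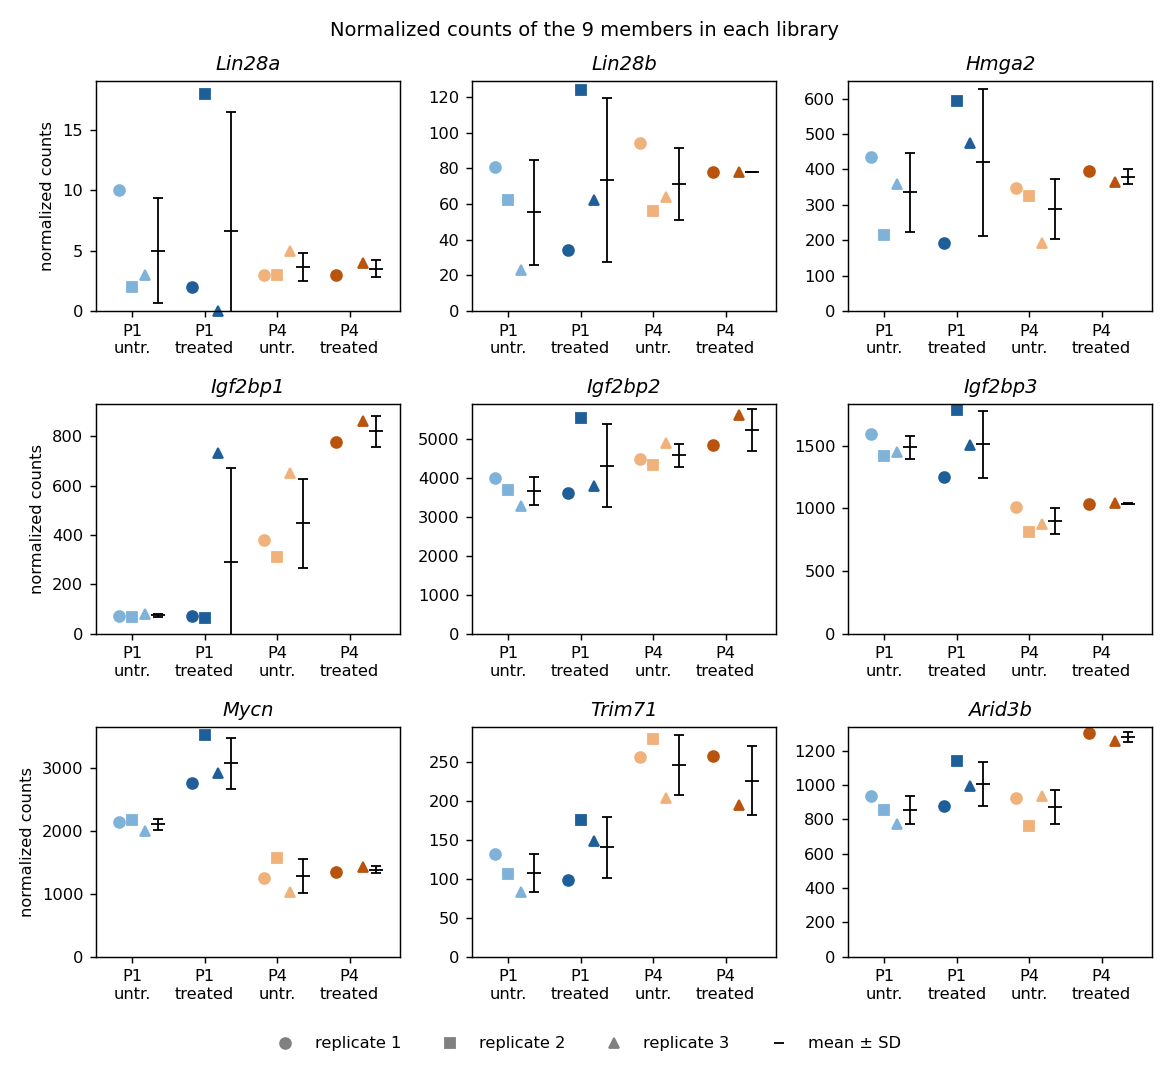
Each panel shows 1 gene, with normalized counts on the y axis from 0 and the 4 groups on the x axis. Points are single libraries, with a shape for each replicate number, and the black mark and bar are the mean ± SD (bars below 0 are cut off). *Mycn* and *Igf2bp3* sit higher at P1 and *Trim71* lower, and *Igf2bp1* is at 64 to 81 in 5 P1 libraries and at 730 in P1 treated replicate 3.

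The same question was then asked in treated pups, where the P4 group had 2 libraries. 2 of the 8 genes were called, both higher at P1, beside 11.1% of all genes, and 5 of 8 did not overlap between the groups, beside 43.1%. *Mycn* was at 2763, 3532 and 2931 normalized counts in P1 treated and at 1348 and 1423 in P4 treated libraries. Each P1 value was far above the P4 values, and the mean was 2.21-fold higher (log2 fold change 1.14, adjusted p = 0.00335 from limma, standard error 0.161). With log2 *Xist* as a covariate the log2 fold change was 1.05 and was not called (standard error 0.282, adjusted p = 0.185). *Xist* was low in all 3 P1 treated and high in the 2 P4 treated libraries. Only the P1 untreated group held both low and high *Xist*, so this covariate rested mainly on libraries outside the comparison.

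*Igf2bp3* was at 1247, 1782 and 1501 normalized counts in P1 treated and at 1032 and 1039 in P4 treated libraries, a 1.44-fold difference without overlap (log2 fold change 0.53, standard error 0.149, adjusted p = 0.0466). The call was marginal: it was kept in 8 of 22 alternatives, was lost when any 1 of 8 libraries was left out (adjusted p up to 0.203) and was lost with the replicate number as a block (0.52, adjusted p = 0.105).

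*Igf2bp1* was at 73, 64 and 730 normalized counts in P1 treated and at 775 and 863 in P4 treated libraries. Replicate 3 of the P1 treated group stood apart from its group and was near the P4 level, so the comparison was not called (log2 fold change -2.43, standard error 0.833, adjusted p = 0.0889). Without that library the log2 fold change was -3.56 (adjusted p = 0.000908). The same library had the highest mean of the proliferation genes, 9.88, and the lowest of the mesenchyme markers at P1, 9.96, and whether these go with its *Igf2bp1* level was not tested.

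*Trim71* was at 98, 175 and 148 normalized counts in P1 treated and at 257 and 195 in P4 treated libraries (log2 fold change -0.71, standard error 0.299, adjusted p = 0.154). *Arid3b* was at 879, 1139 and 996 in P1 treated and at 1301 and 1257 in P4 treated libraries (log2 fold change -0.36, standard error 0.144, adjusted p = 0.14). For both, the P4 values were above the P1 values without passing the threshold.

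*Lin28b* was at 34, 124 and 62 normalized counts in P1 treated and at 78 and 78 in P4 treated libraries. *Hmga2* was at 191, 595 and 476 in P1 treated and at 395 and 364 in P4 treated libraries. For both genes the P1 treated values spread to either side of the P4 values (log2 fold change -0.28 for *Lin28b*, adjusted p = 0.804, and -0.00 for *Hmga2*, adjusted p = 0.997). *Igf2bp2* was at 3624, 5540 and 3788 in P1 treated and at 4845 and 5614 in P4 treated libraries, with overlap and a log2 fold change of -0.30 (adjusted p = 0.282), and *Lin28a* was at 2, 18 and 0 and at 3 and 4.

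P1 treated replicate 2 had the highest value of all 11 libraries for *Lin28a*, *Lin28b*, *Hmga2*, *Igf2bp3* and *Mycn*, the highest of the P1 libraries for *Igf2bp2*, *Trim71* and *Arid3b*, and the lowest of all for *Igf2bp1*. It also had a mean log2 level of 10.33 for 11 markers of the stria vascularis, the secretory epithelium beside the sensory epithelium, against 7.85 to 9.22 in the other libraries. These markers did not move together. In P1 treated replicate 2 *Dct* was at 1590 normalized counts, the highest of all 11 libraries, and *Kcnj10* at 287, the lowest. The list was chosen after the values had been seen. 2 of its markers (*Dct* and *Esrrb*) were at 0 in at least 1 library, and the part of the list in the levels above was not tested.

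Whether stabilized β-catenin changed these genes was asked at each age. At P1, 0 of the 8 genes were called by limma, beside 0.353% of all genes, with 1 of the 8 and 2241 of all genes at an unadjusted p under 0.05. 1 gene did not overlap between the groups, beside 15.3% of all genes. It was *Mycn*, whose 3 treated values (2763, 3532 and 2931) were above the untreated values (2145, 2172 and 1998), 1.45-fold on average (log2 fold change 0.54, standard error 0.144, adjusted p = 0.166). The interval of 0.22 to 0.86 is for this gene alone, and the adjusted p was 0.0908 to 0.884 over 22 alternatives, the highest with log2 *Xist* as a covariate.

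For the other tested genes the treated and untreated values at P1 overlapped. The log2 fold change was 0.38 for *Lin28b* (95% interval -0.79 to 1.56), 0.23 for *Hmga2* (-0.69 to 1.16), 0.22 for *Igf2bp2* (-0.12 to 0.55), 0.01 for *Igf2bp3* (-0.29 to 0.31), 0.37 for *Trim71* (-0.22 to 0.97) and 0.23 for *Arid3b* (-0.05 to 0.52). Without P1 treated replicate 2 the values were -0.09 for *Lin28b* and -0.09 for *Hmga2*. *Igf2bp1* had a log2 fold change of 1.02 (adjusted p = 0.668), which was -0.12 without P1 treated replicate 3.

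At P4, 0 of the 8 genes were called by limma, beside 0.0543% of all genes, with 1 of the 8 and 2141 of all genes at an unadjusted p under 0.05. *Hmga2*, *Igf2bp1*, *Igf2bp3* and *Arid3b*, 4 of the 8, did not overlap between the groups and were higher in the treated libraries, beside 33.5% of all genes without overlap in a comparison of 2 and 3 libraries. *Arid3b* was at 1301 and 1257 normalized counts in treated and at 923, 760 and 934 in untreated libraries, 1.47-fold higher (log2 fold change 0.56, standard error 0.144, adjusted p = 0.265). *Igf2bp1* was at 775 and 863 against 379, 311 and 651 (log2 fold change 0.94, standard error 0.833, adjusted p = 0.696). *Hmga2* had a log2 fold change of 0.44 and *Igf2bp3* of 0.21, and *Lin28b* (0.16), *Igf2bp2* (0.19), *Mycn* (0.13) and *Trim71* (-0.13) overlapped.

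Some cell type markers moved with treatment, where 0.353% of all genes were called at P1 and 0.0543% at P4. Mesenchyme markers lay at 9.96 to 11.07 in P1 treated against 11.07 to 11.40 in P1 untreated libraries, and at 9.84 to 10.11 in P4 treated against 10.65 to 10.96 in P4 untreated libraries. The 1 mesenchyme marker called at P1, *Lum*, an extracellular matrix proteoglycan, went against this mean and was higher in treated libraries (log2 fold change 0.75, adjusted p = 0.0364). Immune markers lay at 6.63 to 7.89 in P1 treated against 8.02 to 8.41 in P1 untreated libraries, and neuron and glia markers at 8.30 to 8.37 in P4 treated against 8.69 to 9.91 in P4 untreated libraries, with 0 of 13 and 0 of 14 called by limma and 10 and 2 at an unadjusted p under 0.05. Supporting cell markers lay at 12.62 to 12.83 in P1 treated against 12.40 to 12.48 in P1 untreated libraries, with *Lgr5*, a Wnt target of progenitor-like supporting cells (log2 fold change 1.86, adjusted p = 0.00087), *Gjb2* and *Gjb6* called higher and *Sox2* lower (-0.67, adjusted p = 0.03). The paper names as a limit that knock-in alleles such as Sox2-CreER lower *Sox2*. Only treated pups carried this allele, so its effect and that of stabilized β-catenin cannot be told apart here. The part of these markers in the values of *Mycn* and *Arid3b* with treatment was not tested.

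The effect of treatment was not shown to differ between the ages for any of these genes. The interaction of treatment and age was called in 0 of the 8 genes and in 0% of all genes by limma, with 0 of the 8 and 1067 of all genes at an unadjusted p under 0.05. It was 0.41 for *Mycn* (95% interval -0.07 to 0.89, adjusted p = 0.862), -0.33 for *Arid3b* (-0.75 to 0.10) and 0.50 for *Trim71* (-0.39 to 1.39). The age comparisons in treated and in untreated pups share no library, but share 1 estimate of the spread. With DESeq2, the paper reports more genes changed with treatment at each age than were called here. It also reports genes with a combined effect of age and treatment, where limma called 0. Why the counts differ was not tested.

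**Figure D3:**
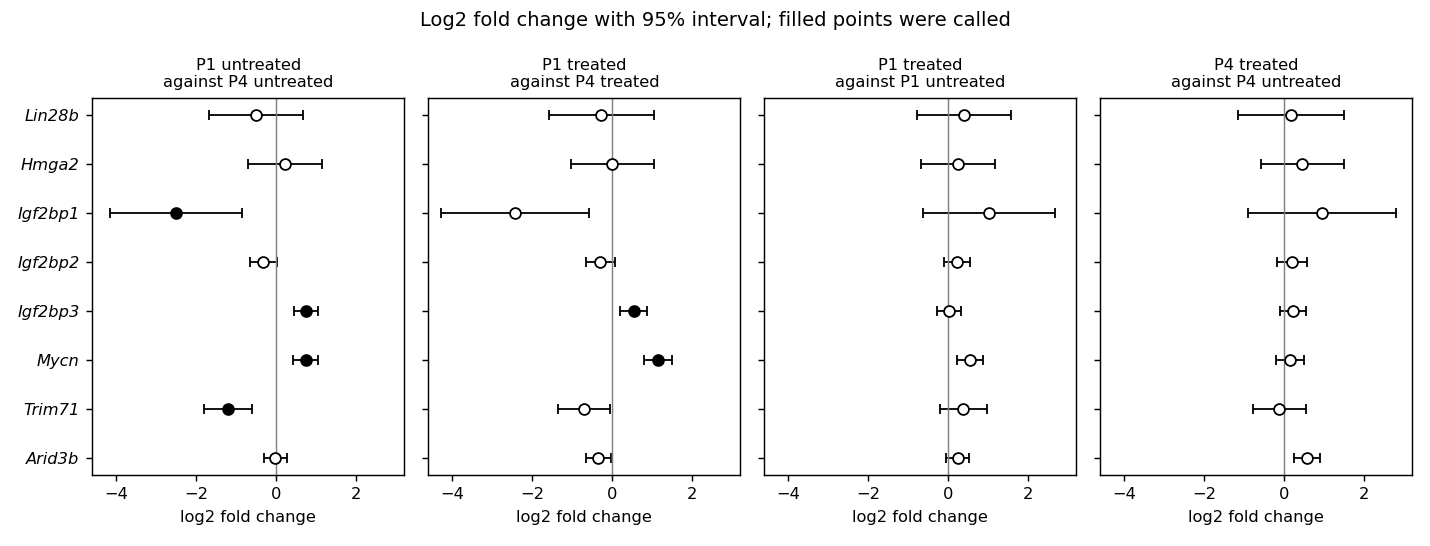
Log2 fold changes (x axis) of the 8 tested genes, first group minus second group, with 95% intervals, in 2 comparisons of age and 2 of treatment. Filled points were called: 4 between the untreated groups, 2 between the treated groups and 0 with treatment at either age.

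Across the 4 groups, *Mycn* was highest in P1 treated (3075 ± 404, SD, n = 3), then P1 untreated (2105 ± 93.6, n = 3), P4 treated (1386 ± 53, n = 2) and P4 untreated (1282 ± 268, n = 3). The 2 P4 groups did not differ beyond their spread. *Igf2bp3* lay at 2 levels, 1510 ± 268 and 1486 ± 93.8 at P1 and 1036 ± 4.95 and 898.7 ± 101 at P4 (treated and untreated). *Trim71* was highest in P4 untreated (246.3 ± 38.4), then P4 treated (226 ± 43.8), P1 treated (140.3 ± 39.1) and P1 untreated (107 ± 24.5), with overlap within each age.

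For the other genes the order of the groups was less clear. *Igf2bp1* was at 819 ± 62.2 in P4 treated, 447 ± 180 in P4 untreated, 289 ± 382 in P1 treated and 74.33 ± 6.11 in P1 untreated libraries, and *Arid3b* at 1279 ± 31.1 in P4 treated, 1005 ± 130 in P1 treated, 872.3 ± 97.4 in P4 untreated and 853.7 ± 83.5 in P1 untreated libraries. *Arid3b* thus had 1 group, P4 treated, without overlap with any other. *Lin28b* ran from 55.33 ± 29.6 in P1 untreated to 78 in P4 treated libraries, and *Hmga2* from 288 ± 84.7 in P4 untreated to 420.7 ± 208 in P1 treated libraries. For both genes the range of group means was smaller than the SD of the P1 treated libraries.

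The machinery around let-7 was described through a list of 23 tested genes of microRNA processing and silencing. Between untreated groups 2 were called higher at P1 and 4 lower, beside 10.5% and 9.38% of all genes. *Hnrnpa1* (log2 fold change 0.42, adjusted p = 0.0266) and *Syncrip* (0.40, adjusted p = 0.014), which encode RNA-binding proteins known to bind let-7 precursors, were higher at P1. *Tnrc6b* (-0.55, adjusted p = 0.00349), which encodes a scaffold of the silencing complex, *Msi1* (-0.96, adjusted p = 0.00458), an RNA-binding partner of LIN28, and *Ago4* (-0.64, adjusted p = 0.00692), an Argonaute, were lower at P1. The other was *Trim25*, whose product acts with LIN28A on the let-7 precursor (-0.75, adjusted p = 0.0443). The median of the list was -0.17, against 0.02 over all genes.

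The enzymes that act directly on let-7 precursors were present in every library and passed no test in any comparison. *Zcchc6*, a terminal uridylyltransferase, was at 2029 to 2985 normalized counts and its paralogue *Zcchc11* at 1856 to 2269. *Dis3l2*, the exonuclease that degrades uridylated precursors, was at 1618 to 1999, and *Dicer1*, which cuts the hairpin, was at 1094 to 1897. Between treated groups only *Tnrc6b* of the 23 genes was called (-0.55, adjusted p = 0.0124), beside 11.1% of all genes, and with treatment 0 of the 23 at either age.

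Of 23 other genes known as let-7 targets, 0 were called higher and 3 lower at P1 between untreated groups, beside 10.5% and 9.38% of all genes. Among the 3 lower genes were *Mycl*, a paralogue of *Mycn* (6322 ± 1160 at P1 and 10140 ± 452 at P4, log2 fold change -0.70, adjusted p = 0.00309) and *Insr*, the insulin receptor (-0.33, adjusted p = 0.0408). *Mycl* and *Mycn* thus went in opposite directions with age. The median of the list was -0.02, against 0.02 over all genes. Between treated groups 0 of the 23 were called, beside 11.1% of all genes, and 0 of the 23 with treatment.

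Of 14 tested genes of the insulin-like growth factor axis, whose *Igf2* mRNA is a known cargo of the IGF2BP proteins, 1 was called higher and 3 lower at P1 between untreated groups. Over all genes the shares were 10.5% and 9.38%, and 11.1% in either direction between treated groups. *Igf2* was at 6249 to 13184 normalized counts over all libraries and was not called. The called genes encode binding proteins and the receptor *Insr*. *Igfbp2* was higher at P1 (15810 ± 2490 against 4588 ± 1790, log2 fold change 1.84, adjusted p = 0.0177), and *Igfbp4* (15900 ± 1900 against 62710 ± 17500, -1.95, adjusted p = 0.001) and *Igfbp6* (25 ± 7 against 98.33 ± 41.6, -1.89, adjusted p = 0.00807) were lower. *Igfbp4* (-1.59) and *Igfbp6* (-1.88) were also called between treated groups, 2 of the 14.

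Of 13 genes of fetal and perinatal stages outside the pathway, 3 were called higher and 1 lower at P1 between untreated groups. The shares over all genes were 10.5% and 9.38%, and 11.1% in either direction between treated groups. *Sox11*, a transcription factor of immature neurons and progenitors, was higher (log2 fold change 0.86, adjusted p = 0.00425), with *Mest* (0.50, adjusted p = 0.0061), an imprinted gene, and *Nrep* (0.46, adjusted p = 0.0139). *Sox4*, the paralogue of *Sox11*, was lower (-1.02, adjusted p = 3e-05). Between treated groups 1 was higher (*Nrep*, 0.47) and 2 lower (*Sox4*, -0.67, and *Mest*, -0.39), so *Mest* was called in opposite directions in treated and untreated pups, and its interaction was -0.90 (adjusted p = 0.405 from limma), with 0 of the 13 called.

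Other lists were set against the same contrast of age. Over all genes, 10.5% were called higher and 9.38% lower at P1 between untreated groups, and 11.1% in either direction between treated groups. Of 18 proliferation genes, 4 were called higher at P1 between untreated and 8 between treated groups and 0 lower in either (*Mcm4*, a DNA helicase subunit, 0.62 between untreated groups). Their mean log2 level was 8.28 to 8.56 in P1 untreated, 8.11 to 9.88 in P1 treated, 7.46 to 7.67 in P4 untreated and 7.35 to 7.50 in P4 treated libraries. Hair cell markers lay at 10.22 to 10.92 at P1 and 11.15 to 11.53 at P4, with 6 of 15 called lower (*Ocm*, a calcium-binding protein of outer hair cells, -3.46) and 1 higher (*Atoh1*, the transcription factor that starts hair cell fate, 1.14) at P1 between untreated groups. Mesenchyme markers lay at 11.07 to 11.40 in P1 untreated and 10.65 to 10.96 in P4 untreated libraries, with 2 of 15 called higher and 2 lower. Of 16 supporting cell markers, 2 were called higher and 6 lower at P1 (*Lfng*, a modifier of Notch receptors, -1.39). Neuron and glia (0 higher and 1 lower of 14), immune (0 of 13) and blood and vessel markers (0 of 10) were called in few or no cases. The part of these differences in the levels of *Mycn*, *Igf2bp3*, *Trim71* and *Igf2bp1* was not tested.

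**Figure D4:**
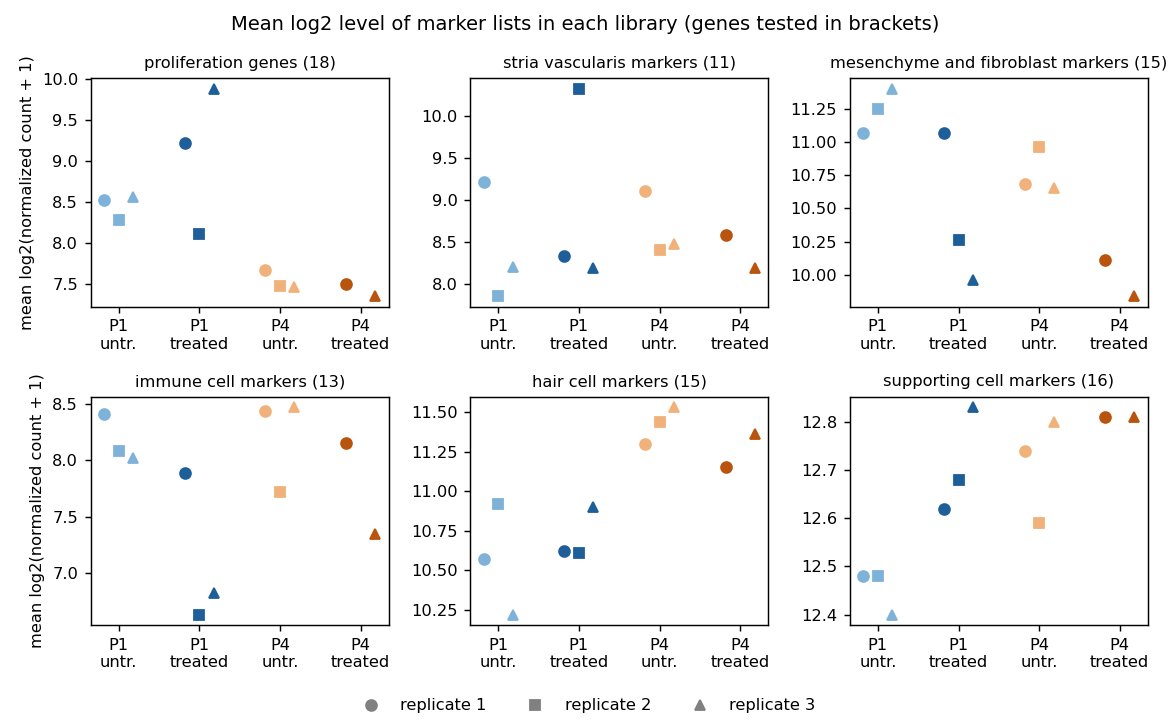
Mean log2(normalized count + 1) of 6 gene lists (y axis, a separate scale in each panel) in the 11 libraries, by group (x axis) and replicate (point shape). P1 treated replicate 2 is at 10.33 for the stria vascularis markers and P1 treated replicate 3 at 9.88 for the proliferation genes, and the hair cell markers are at 11.15 to 11.53 in all P4 libraries.

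The genes also differed in how they varied from library to library. As a description over 11 libraries, which differ in age, treatment and dissection, Pearson's r of log2 levels was 0.84 between *Mycn* and *Igf2bp3*, 0.77 between *Lin28b* and *Igf2bp2*, 0.72 between *Igf2bp2* and *Trim71*, and -0.65 between *Igf2bp1* and *Igf2bp3*. *Lin28b* and *Hmga2*, regulator and target in the textbook pathway, had 0.46. The genes most like *Lin28b* were *Ahctf1* (0.936), *Mcf2l* (0.917), *Myo7a* (0.916), *Eml5* (0.911) and *Card10* (0.907). *Myo7a*, a hair cell myosin, was at 2516 normalized counts in P1 treated replicate 2 and at 867 in P1 untreated replicate 3, the libraries with the highest (124) and lowest (23) *Lin28b*. Other hair cell markers shared this pattern only in part. In P1 treated replicate 2 *Ocm* was at 407, the lowest of all 11 libraries, and *Atoh1* at 515, the highest. The hair cell list had a mean log2 level of 10.61 there, against 10.62 and 10.90 in the other P1 treated libraries. In P1 untreated replicate 3 the list was at 10.22, its lowest level of all 11 libraries. The genes most like *Hmga2* were *A130051J06Rik* (0.940), *Ccbe1* (0.921), *Gpr4* (0.920), *Ccdc148* (0.905) and *2210406O10Rik* (0.899).

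Genes outside the family were also grouped by the number of let-7 seed matches in the 3′UTR. Between untreated groups, 11.8% of 13654 genes without a match were called higher at P1 and 9.78% lower, 9.49% and 11.2% of 1381 genes with 1 match, and 6.02% and 10.8% of 166 genes with 2 matches. Of 24 genes with 3 or more, 1 was higher (4.17%, *Nhlrc3*, 0.61) and 2 lower (8.33%, *Trim67*, -1.69, and *Zfp652*, -0.63). The median log2 fold change was 0.04 without a match, -0.00 with 1, -0.03 with 2 and 0.06 with 3 or more. The median 3′UTR was longer with more matches, from 1049 bases without one to 4682.5 bases with 3 or more, and the part of length in these shares was not tested.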

How the data were processed

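The deposited values are a score per gene, whole numbers that the authors named normalized counts. They were treated as counts scaled for each library and rounded, so tests for raw counts were not used. Per the study's methods, reads were mapped to mm10 (STAR 2.5.2b), genes were counted for quality control (featureCounts), and Sailfish estimates were summed by tximport. The authors compared groups with DESeq2. The kind of count behind the table was not given in the sources used here. The table had 27755 entries, of which 626 carried no symbol and 1 repeated an ID and was dropped.

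Group means over the 11 libraries were fitted with limma 3.58.1 (R 4.3.3) to log2(normalized count + 1), using eBayes with trend, for the 18400 genes with a mean of at least 10, and Benjamini-Hochberg adjustment ran over all of them. Calls needed an adjusted p below 0.05 and the study's minimum fold change. On this scale the fold change of a low gene is understated. Each library came from 1 pup. The depth of each library before scaling was not estimated here.

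The 9 genes are named whatever their values. For each list of the pathway, the called genes of smallest adjusted p are named, at most 3 in each direction (for marker lists, 1 gene), and for *Lin28b* and *Hmga2* the 5 genes of highest r. Other genes named were chosen after their values were seen, and 1 gene that the rule names is not reported here. The genes, lists and tests were chosen with earlier results of these data known. Residuals of same-numbered libraries had correlations of 0.115 to 0.136 between the untreated groups, a hint of pairing from the data and not from the labels, and of -0.0605 to 0.026 otherwise.

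The longest annotated 3′UTR of each gene (GENCODE M21) was searched for the exact letters CTACCTC, and shorter or other pairing sites were not counted. Alternatives were a pseudocount of 5, no filter, a minimum mean of 50, eBayes without trend, a fit to the compared groups, median of ratios, quantile normalization, log2 *Xist* as a covariate, the replicate block, a threshold of 0.1 for adjusted p, no fold threshold, and the omission of each library.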

Additional observations from a re-analysis of the deposited data

How the results depend on the processing

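Between untreated groups the 4 genes called became 2 with log2 *Xist* as a covariate (*Igf2bp3* and *Mycn*), 3 with no filter and with eBayes without trend (without *Igf2bp1*), and 3 to 5 when 1 library was left out. Between treated groups the 2 genes called became 1 with no filter, with eBayes without trend, with only the groups compared, with quantile normalization and with the replicate block, 0 with log2 *Xist* as a covariate, and 1 to 2 when 1 library was left out. Pairing by the replicate block changed no other call of these genes.

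With log2 *Xist* as a covariate the direction turned for *Lin28b* (-0.38), *Hmga2* (-0.27) and *Igf2bp3* (-0.12) in treatment at P1, *Trim71* (0.37) in treatment at P4, *Lin28b* (0.14) and *Arid3b* (0.09) between untreated groups, and *Lin28b* (-1.65), *Igf2bp2* (-0.38) and *Trim71* (-0.34) in the interaction. *Igf2bp2* turned in the interaction with the replicate block (-0.03). None of these was called, and the cause was not tested. The *Xist* covariate rested mainly on the P1 untreated libraries, the only group with both low and high *Xist*, and is not a full adjustment for sex.

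When 1 library was left out, log2 fold changes that turned ran from -0.14 to 0.83 (*Lin28b*), -0.09 to 0.72 (*Hmga2*), -0.12 to 0.14 (*Igf2bp3*) and -0.12 to 1.63 (*Igf2bp1*) in treatment at P1, and -0.32 to 0.07 (*Trim71*) and -0.01 to 0.29 (*Mycn*) in treatment at P4. They ran from -0.06 to 0.50 (*Hmga2*), -0.86 to 0.03 (*Lin28b*) and -0.13 to 0.04 (*Arid3b*) between untreated groups, and -0.75 to 0.17 (*Lin28b*) and -0.33 to 0.49 (*Hmga2*) between treated groups. In the interaction they ran from -0.54 to 0.28 (*Hmga2*), -0.31 to 0.67 (*Lin28b*), -0.17 to 0.14 (*Igf2bp2*) and -1.06 to 0.69 (*Igf2bp1*).

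In all, 390 of 440 values with 1 library left out and 410 of 432 others kept their direction and their side of the threshold. The count of all genes called between treated groups was 28 to 3050 over the other alternatives, against 2034, between untreated groups 1807 to 4757, against 3659, with treatment at P1 7 to 135, against 65, and at P4 2 to 18, against 10. With 1 library left out these counts were 356 to 2072, 2450 to 3868, 11 to 371 and 6 to 22. The interaction called 0 to 14 genes. Only the groups compared could not be run for the interaction. Groups of 2 and 3 libraries limit what could be called.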
